A study of Mus musculus with 14 samples.

Results

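Genes for 6 subunits of the NADPH oxidases, Cybb, Cyba, Ncf1, Ncf4, Rac2 and Nox4, were followed in single-cell RNA libraries of mouse spinal cord. They were taken by gene symbol, and each symbol matched 1 of the 55335 features counted. The phagocyte NADPH oxidase moves electrons from NADPH across a membrane onto oxygen and so makes superoxide. Its core is a membrane pair, the catalytic subunit gp91phox (Cybb) and its partner p22phox (Cyba). The pair works only after cytosolic proteins have docked on it, among them the organiser p47phox (Ncf1), p40phox (Ncf4) and a Rac GTPase, of which Rac2 is the form found mostly in blood cells. Nox4 is another catalytic subunit, which also pairs with p22phox but needs none of the cytosolic proteins and releases mainly hydrogen peroxide. In the central nervous system the phagocyte oxidase is best known from microglia.

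The 14 libraries came from whole spinal cord of mice aged P115-120 days, and the study asked what the myeloid receptor Clec7a (Dectin-1) does in microglia during amyotrophic lateral sclerosis (ALS). Libraries fell into 4 groups: non-transgenic mice (nTg, n = 3), Clec7a knockout mice of strain B6.129S6-Clec7atm1Gdb/J (Clec7a-KO, n = 4), mice of strain B6SJL-Tg(SOD1*G93A)1Gur/J, which carry a mutant human SOD1 transgene (SOD1G93A, n = 3), and mice with both (SOD1G93A/Clec7a-KO, n = 4). The mice were perfused with cold buffer, and the cords were digested with enzymes at 37 °C and cleared of myelin before 10x 3' libraries were made. Genotype and strain background differ together between the groups and cannot be told apart. The labels do not say that each library is a separate animal, so p-values measure only the spread between libraries.

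After filtering, 89225 cells were kept, of which 50466 were called microglia from their markers. Clec7a gave 57449 to 101134 UMIs (counted molecules) per library in SOD1G93A, 755 to 1767 in nTg, 33 to 110 in Clec7a-KO and 74 to 240 in SOD1G93A/Clec7a-KO. Xist exceeded Ddx3y in 4 libraries, nTg replicates 1 and 3, Clec7a-KO replicate 3 and SOD1G93A/Clec7a-KO replicate 4, so the groups were not matched for sex, and Cybb lies on the X chromosome. Each of the 91 library pairs shared 1 to 33 cell barcodes, at most 0.456%. In 6 of the 7 classes tested between groups, all but neurons, transgenic and non-transgenic libraries were held mostly by different clusters. Clusters 3 and 6 held 60.6% and 37.0% of nTg microglia and clusters 0, 1 and 2 held 29.0%, 18.2% and 40.5% of SOD1G93A microglia. In SOD1G93A/Clec7a-KO, clusters 0, 1 and 5 held 28.6%, 35.002% and 25.5%. Values between groups are in counts per 1000000 (CPM) after edgeR's TMM scaling, which averaged 1.22 in nTg, 1.16 in Clec7a-KO, 0.890 in SOD1G93A and 0.815 in SOD1G93A/Clec7a-KO microglia. Without that scaling the median gene shifted by -0.45 on the log2 scale in SOD1G93A against nTg and by -0.51 in SOD1G93A/Clec7a-KO against Clec7a-KO. Changes smaller than these shifts therefore depend on the scaling, as do the calls of some larger ones.

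The DNA just upstream of the gene starts is shown for the membrane pair, which rose most in transgenic microglia, and for the organiser Ncf1, which did not. RefSeq's table for GRCm38.p6 held 4 of the 6 members, and the sequences are the 250 bases before each start, on the gene's strand. Capitals mark GAAA followed after 2 bases by GAAA, a core read by interferon regulatory factors, on either strand.
Cybb (chrX:9469325-9469574, minus strand): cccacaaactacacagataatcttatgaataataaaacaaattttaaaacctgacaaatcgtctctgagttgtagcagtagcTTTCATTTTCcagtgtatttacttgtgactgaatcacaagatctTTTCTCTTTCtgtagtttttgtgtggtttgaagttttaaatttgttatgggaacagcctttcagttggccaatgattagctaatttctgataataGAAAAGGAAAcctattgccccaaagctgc
Cyba (chr8:122432941-122433190, minus strand): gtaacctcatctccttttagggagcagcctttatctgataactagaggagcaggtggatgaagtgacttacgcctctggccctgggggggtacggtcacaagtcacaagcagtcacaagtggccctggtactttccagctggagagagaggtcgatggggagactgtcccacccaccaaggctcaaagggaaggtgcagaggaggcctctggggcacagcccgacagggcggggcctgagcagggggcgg
Ncf1 (chr5:134229626-134229875, minus strand): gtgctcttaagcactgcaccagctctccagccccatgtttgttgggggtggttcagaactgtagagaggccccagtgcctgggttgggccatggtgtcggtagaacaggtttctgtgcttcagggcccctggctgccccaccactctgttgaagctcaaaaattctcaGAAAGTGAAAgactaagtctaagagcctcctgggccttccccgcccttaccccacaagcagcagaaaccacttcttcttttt
The Cybb window held 3 matches, of which the one 29 bases before the start was on the gene's strand and those 168 and 124 bases before it were on the opposite strand. The Ncf1 window held 1 match and the Cyba window none, while 3.04% of 27025 promoter windows held at least 1. GAGGAA, a core of the ETS factor PU.1 found in 23.1% of windows, and GGGA followed after 1 base by TTTCC, an NF-kB core found in 0.337%, were in none of these windows on either strand. The RefSeq start of Cybb lies inside the longer span that GENCODE gives the gene, and a match is a description, not a bound site.

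In the annotation of the counts (GRCm38, GENCODE vM21), Cybb (ENSMUSG00000015340.10) lies at chrX:9435252-9487771 on the minus strand and Cyba (ENSMUSG00000006519.11) at chr8:122424776-122432930 on the minus strand. Ncf1 (ENSMUSG00000015950.13) lies at chr5:134220053-134229625 on the minus strand. Ncf4 (ENSMUSG00000071715.12) at chr15:78244801-78262580 on the plus strand and Rac2 (ENSMUSG00000033220.7) at chr15:78559167-78572783 on the minus strand share a chromosome. Nox4 (ENSMUSG00000030562.17) lies at chr7:87246096-87398710 on the plus strand. Ncf1 shares 408 exon bases with Gtf2ird2 on the opposite strand, and whether strand was used in counting is not given in the sources used here. Gtf2ird2 itself had 4.08 to 14.1 CPM without scaling factors in the microglia of the 14 libraries, far under Ncf1. Rac1, the other Rac GTPase measured, shares 2309 exon bases with Daglb on the opposite strand, whose group means of 163 to 266 CPM on that scale are nearer its own, so Rac1 and its ratio to Rac2 are uncertain.

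Cybb and Ncf1 were detected mainly in myeloid cells, Ncf4 and Rac2 in myeloid cells and in T and NK cells, and Nox4 outside the immune cells. Cyba was detected in all classes. As a percent of the microglia level, however, it exceeded the highest of 11 microglia marker genes in only 3 of 14 oligodendrocyte precursor libraries and 6 of 13 neuron libraries. Levels by class are CPM of summed UMIs per library without scaling factors, averaged over libraries with at least 20 cells of the class. Cybb stood at 694 ± 102 CPM (SD, n = 11) in border-associated macrophages, 401 ± 285 in neutrophils (n = 6) and 207 ± 198 in microglia (n = 14), against 5.15 or less in every class outside neurons and T and NK cells. In neutrophils its level ran from 0 in the 33 cells of nTg replicate 1 to 833 in Clec7a-KO replicate 2. The neuron mean of 20.8 CPM rested on 1 library with 29 neurons, SOD1G93A/Clec7a-KO replicate 2, at 211 CPM, and the neuron median was 1.71. The microglia mean joins 26.8 CPM in nTg and 35.6 in Clec7a-KO with 439 in SOD1G93A and 341 in SOD1G93A/Clec7a-KO, whereas the neutrophils came from non-transgenic libraries only. Between neighbours in the order of Cybb, microglia exceeded neurons in 13 of 13 libraries (adjusted p = 0.00311, exact two-sided sign-flip permutation over 51 neighbour tests). Border-associated macrophages and neutrophils shared only 3 libraries, where the smallest possible permutation p is 0.25.

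**Figure D1:**
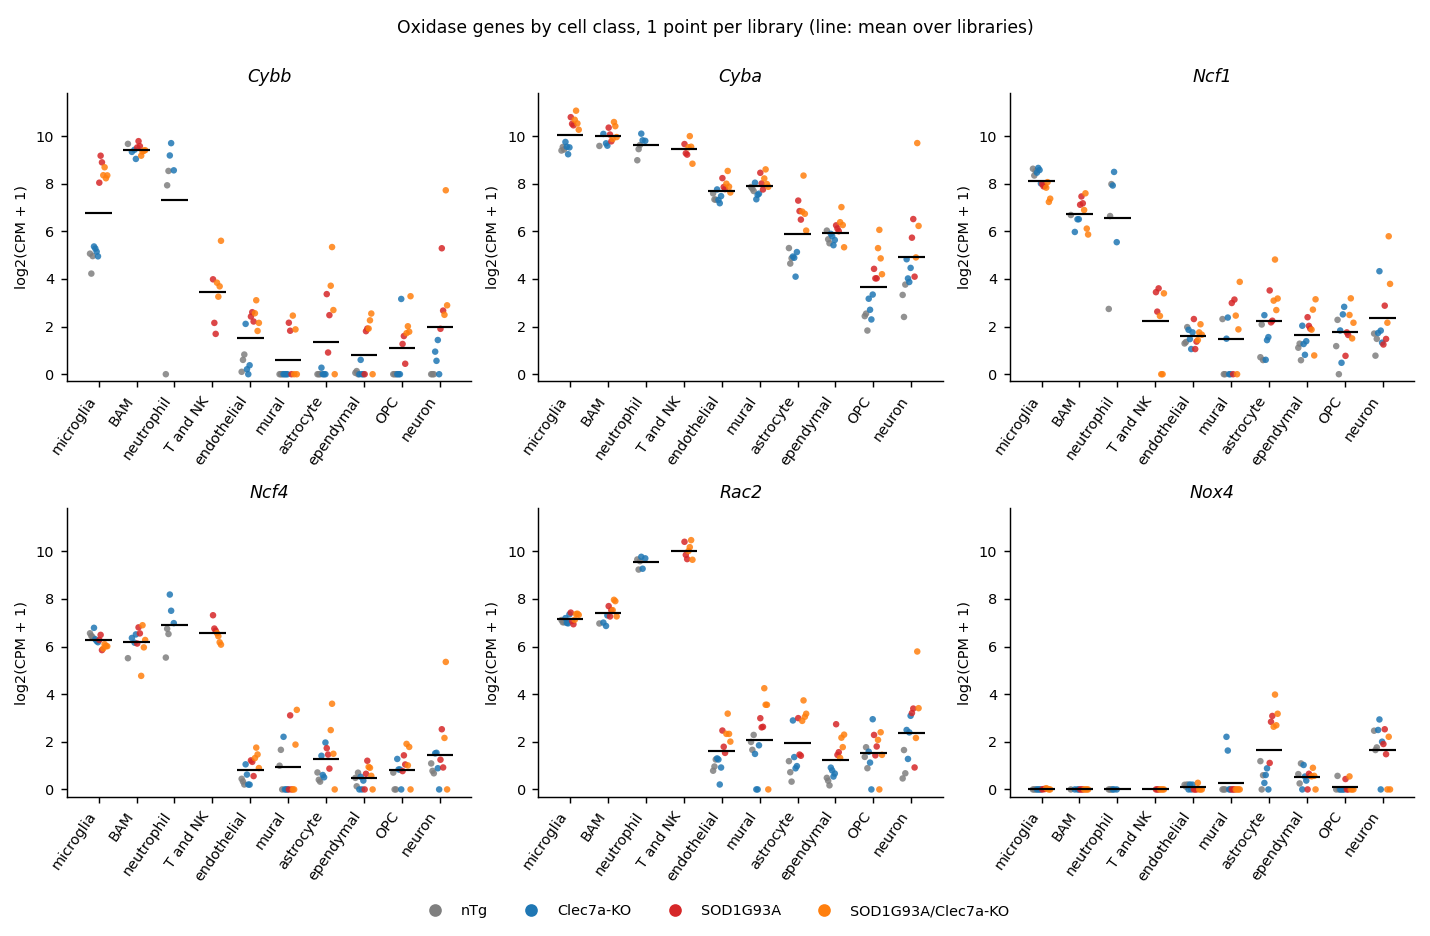
Levels of the 6 oxidase genes by cell class, 1 panel per gene, as log2(CPM + 1) on the vertical axis. Each point is 1 library coloured by group and each line is the mean over libraries; In microglia Cybb runs from 17.7 to 578 CPM, and Nox4 stays near 0 in every myeloid class.

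Cyba was highest in microglia at 1158 ± 498 CPM (SD, n = 14) and border-associated macrophages at 1051 ± 257 CPM (n = 11), which were not separated by the test over all libraries (microglia higher in 7 of 11, adjusted p = 0.383, exact sign-flip permutation). The order differed by genotype, with microglia higher in all 7 transgenic libraries and lower in all 4 non-transgenic ones. Macrophage Cyba was 114% of the microglia level in nTg and 105% to 137% in Clec7a-KO, but 62.7% to 73.7% in SOD1G93A and 57.1% to 92.3% in SOD1G93A/Clec7a-KO. Neutrophils followed at 815 ± 202 CPM (n = 6) and T and NK cells at 714 ± 180 CPM (n = 7). The neutrophils came from non-transgenic libraries only. Within those, neutrophil Cyba was 75.3% to 114% of the microglia level in nTg and 121% to 127% in Clec7a-KO, so this order depends on the groups pooled. Unlike the other phagocyte subunits, Cyba also stood at 247 ± 63.1 CPM in mural cells and 215 ± 62.1 CPM in endothelial cells (n = 14), and mural cells exceeded endothelial cells in 13 of 14 libraries (adjusted p = 0.00311, exact sign-flip permutation). It was lowest in oligodendrocyte precursors, at 17.1 CPM, under ependymal cells at 64.0 CPM in 14 of 14 libraries (adjusted p = 0.00311, exact sign-flip permutation).

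Among the cytosolic subunits, Ncf1 was highest in microglia (287 ± 83.8 CPM, SD), then neutrophils (167 ± 138) and border-associated macrophages (113 ± 45.6). Microglia exceeded neutrophils in 6 of 6 libraries, which did not pass the adjusted test (adjusted p = 0.123, exact sign-flip permutation). Ncf4 was more even among the immune cells, with 140 ± 85.8 CPM (SD) in neutrophils, 97.6 ± 30.5 in T and NK cells, 76.7 ± 14.6 in microglia and 76.5 ± 26.9 in border-associated macrophages, and at most 4.42 in other classes. Rac2 was a gene of lymphoid cells and neutrophils first, at 1071 ± 248 CPM (SD, n = 7) in T and NK cells and 750 ± 114.6 CPM (n = 6) in neutrophils. Its level in microglia was 144 ± 17.6 CPM and in border-associated macrophages 172 ± 44.98 CPM, not separated by the test (adjusted p = 0.246, exact sign-flip permutation). Macrophage Rac2 was 90.3% of the microglia level in nTg and 87.7% to 97.1% in Clec7a-KO, against 114% to 151% in SOD1G93A and 95.7% to 152% in SOD1G93A/Clec7a-KO. T and NK cells reached 20 cells only in the 7 transgenic libraries and neutrophils only in 6 non-transgenic ones, so the leading pair for Rac2 could not be tested. In SOD1G93A libraries T and NK cells held Rac2 at 717% and Cyba at 43.6% of the microglia level, but Cybb at 2.24%, inside the range of 0.667% to 3.18% for 11 microglia marker genes in the same cells. Cybb lay above the highest of those markers in 2 of the 7 T and NK cell libraries.

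In microglia the membrane pair rose in SOD1G93A mice, and the cytosolic organiser was not called. Cybb was higher by 22.7-fold and Cyba by 2.99-fold in SOD1G93A than in nTg, Rac2 by 1.47-fold, and Ncf1 and Ncf4 did not pass the test. The same 3 genes rose in SOD1G93A/Clec7a-KO against Clec7a-KO. No subunit passed the test between the transgenic groups, or between the non-transgenic groups. Of the 6 members, 5 passed the filter on low counts. In SOD1G93A against nTg 3 of the 5 were called higher, where 19.0% of all 16497 genes tested were called higher and 12.6% lower at an adjusted p under 0.05. In SOD1G93A/Clec7a-KO against Clec7a-KO 3 of the 5 were called higher, where the shares over all genes were 25.6% and 20.8%. Without scaling factors the members gave 2 higher and 1 lower in the first comparison and 2 higher and 2 lower in the second, beside 43.0% and 58.5% of all genes called in either direction.

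Cybb stood at 26.0, 14.8 and 25.1 scaled CPM in the microglia of nTg replicates 1 to 3, and at 33.2, 31.8, 28.6 and 28.9 in the Clec7a-KO replicates. It reached 282, 679 and 537 in the SOD1G93A replicates and 368, 503, 388 and 417 in the SOD1G93A/Clec7a-KO replicates. Every transgenic library lay above every non-transgenic one (53.2% of all genes did not overlap between SOD1G93A and nTg and 36.4% between SOD1G93A/Clec7a-KO and Clec7a-KO), and the SOD1G93A libraries spread more widely than those of any other group. Means were 21.97 ± 6.24 (SD, n = 3) in nTg, 30.6 ± 2.25 (n = 4) in Clec7a-KO, 499 ± 201 (n = 3) in SOD1G93A and 419 ± 59.5 (n = 4) in SOD1G93A/Clec7a-KO. The log2 difference of SOD1G93A from nTg was 4.51 (SE 0.31, adjusted p = 4.00e-07, edgeR's quasi-likelihood test), and that of SOD1G93A/Clec7a-KO from Clec7a-KO was 3.77 (SE 0.26, adjusted p = 1.14e-07, edgeR). With a term for Xist in the fit, the differences were 4.66 (adjusted p = 6.43e-06, edgeR) and 3.79 (adjusted p = 3.59e-07, edgeR).

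Cyba also separated the transgenic from the non-transgenic groups, on a higher base. Its level was 539, 622 and 577 scaled CPM in nTg, 713, 631, 500 and 711 in Clec7a-KO, 1905, 1719 and 1582 in SOD1G93A, and 1854, 2616, 1919 and 1580 in SOD1G93A/Clec7a-KO. Transgenic and non-transgenic libraries again did not overlap, as found for 53.2% of all genes between SOD1G93A and nTg and 36.4% between SOD1G93A/Clec7a-KO and Clec7a-KO. The log2 difference was 1.58 for SOD1G93A against nTg (SE 0.21, adjusted p = 6.13e-05, edgeR) and 1.64 for SOD1G93A/Clec7a-KO against Clec7a-KO (SE 0.18, adjusted p = 6.42e-06, edgeR).

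Ncf1, the organiser, was not called between groups in the fit over all libraries. It stood at 317, 271 and 307 scaled CPM in nTg, 292, 340, 316 and 248 in Clec7a-KO, 271, 278 and 270 in SOD1G93A, and 256, 326, 194 and 211 in SOD1G93A/Clec7a-KO. All 4 groups overlapped. The log2 difference was -0.13 for SOD1G93A against nTg (SE 0.19, adjusted p = 0.632, edgeR) and -0.28 for SOD1G93A/Clec7a-KO against Clec7a-KO (SE 0.16, adjusted p = 0.171, edgeR). The second was called lower without SOD1G93A/Clec7a-KO replicate 2 (-0.51, adjusted p = 0.0148, edgeR) and with library number as a covariate (-0.33, adjusted p = 0.0365, edgeR). Without scaling factors both became calls for a lower level, at -0.58 (adjusted p = 0.0416, edgeR) and -0.79 (adjusted p = 0.00269, edgeR).

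Ncf4, the subunit p40phox, had 74.8, 72.1 and 69.1 scaled CPM in nTg, 90.4, 65.8, 61.5 and 69.2 in Clec7a-KO, 82.1, 105 and 64.1 in SOD1G93A, and 67.1, 82.5, 83.0 and 81.6 in SOD1G93A/Clec7a-KO. The groups overlapped throughout. Its log2 differences were 0.21 (SE 0.18, adjusted p = 0.385, edgeR) and 0.13 (SE 0.16, adjusted p = 0.513, edgeR) in the 2 transgene comparisons. Without scaling factors they turned to -0.24 (adjusted p = 0.283, edgeR) and -0.39 (adjusted p = 0.0431, edgeR), so the direction of Ncf4 depends on the scaling.

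Rac2, the GTPase, had 110, 108 and 107 scaled CPM in nTg and 184, 157 and 137 in SOD1G93A, without overlap, as found for 53.2% of all genes. The Clec7a-KO libraries held 120, 106, 104 and 157, and the SOD1G93A/Clec7a-KO libraries 156, 200, 215 and 205, with 1 library of each just overlapping. The log2 difference was 0.55 for SOD1G93A against nTg (SE 0.18, adjusted p = 0.0280, edgeR) and 0.67 for SOD1G93A/Clec7a-KO against Clec7a-KO (SE 0.15, adjusted p = 0.00271, edgeR). Without scaling factors neither was called, at 0.11 (adjusted p = 0.585, edgeR) and 0.17 (adjusted p = 0.291, edgeR). The first was also lost without SOD1G93A replicate 1 (0.38, adjusted p = 0.144, edgeR) or replicate 2 (0.50, adjusted p = 0.0884, edgeR), and missed the threshold at like differences of 0.57, 0.55 and 0.55 without nTg replicate 1, 2 or 3 (adjusted p = 0.0639, 0.0751 and 0.0762, edgeR). Adding the Xist term gave 0.49 (adjusted p = 0.123, edgeR), and thinning every cell to 1000 UMIs gave 0.38 (adjusted p = 0.184, edgeR).

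**Figure D2:**
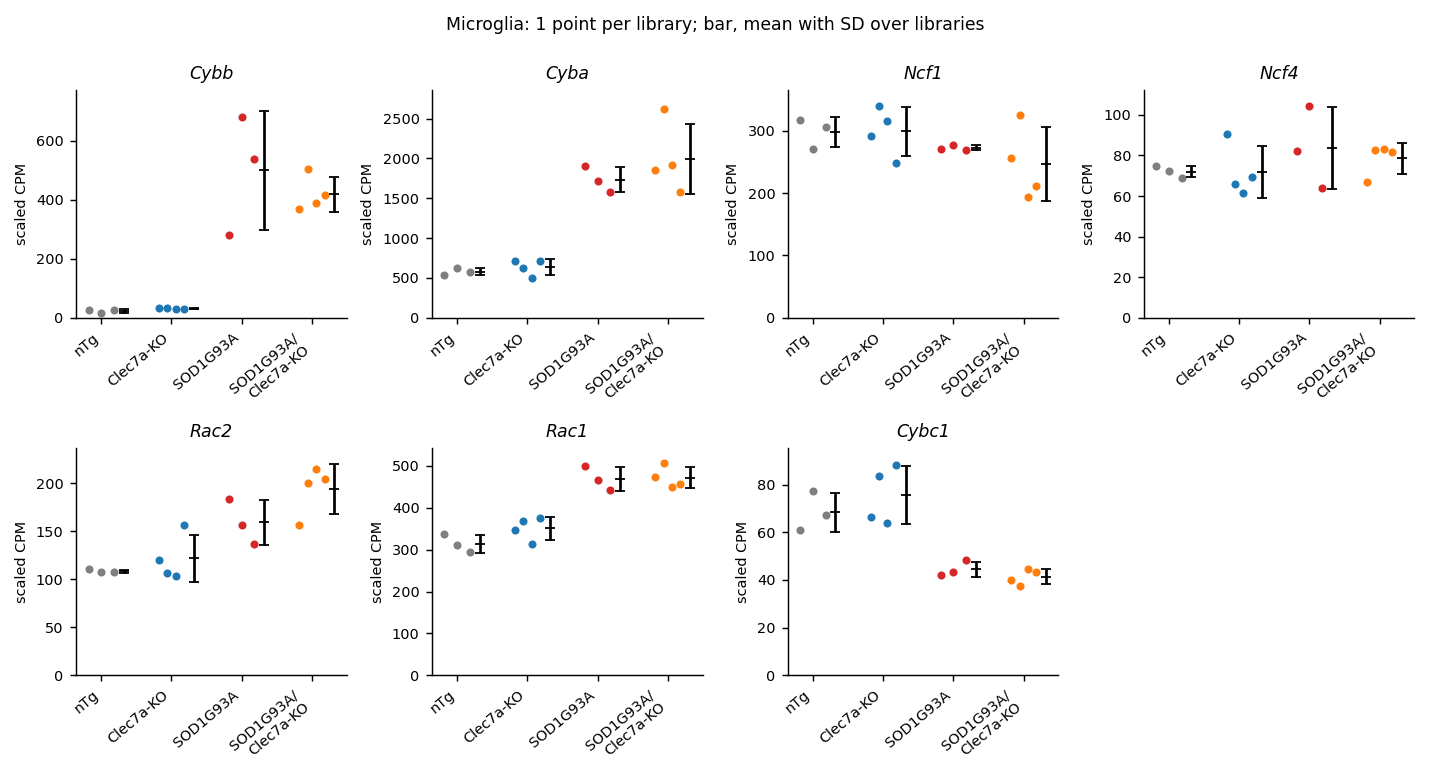
Scaled CPM in the microglia of each library for 7 oxidase genes, by group, with points for libraries and the mean with its SD. Cybb and Cyba separate the transgenic from the non-transgenic libraries, while Ncf1 and Ncf4 overlap in all 4 groups.

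Loss of Clec7a was not followed by a called change in any subunit in microglia. In SOD1G93A/Clec7a-KO against SOD1G93A, edgeR called 0 of the 5 members and DESeq2 also 0, and 0 had an unadjusted p under 0.05. Over all genes, 0.0182% were called and 11.4% had an unadjusted p under 0.05. The log2 differences were -0.25 for Cybb (SE 0.25, adjusted p = 0.667, edgeR), 0.20 for Cyba (SE 0.19, adjusted p = 0.650, edgeR) and 0.28 for Rac2 (SE 0.17, adjusted p = 0.485, edgeR). Those of Ncf1 and Ncf4 were -0.14 and -0.09. Without SOD1G93A replicate 2 the Cybb difference was 0.03. In Clec7a-KO against nTg edgeR and DESeq2 called 0 of the 5 members and 0 had an unadjusted p under 0.05, with 0.0303% of all genes called and 2.45% at an unadjusted p under 0.05. Cybb was nearest, at 0.48 (SE 0.26, unadjusted p = 0.0850, edgeR), and its Clec7a-KO libraries lay above all nTg libraries in scaled CPM. A lack of overlap of that kind was found for 3.76% of all genes. Without scaling factors these groups overlapped for Cybb, at 17.7 to 32.4 CPM in nTg and 29.9 to 40.2 CPM in Clec7a-KO. The difference between the 2 transgene effects was -0.73 for Cybb (SE 0.36, unadjusted p = 0.0608, edgeR) and 0.06 for Cyba. The interaction called 0 genes in all, with 2.19% at an unadjusted p under 0.05.

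Ratios within a library do not depend on the scaling. In microglia, Cybb UMIs per 100 Ncf1 UMIs averaged 7.28 in nTg, 10.4 in Clec7a-KO, 183 in SOD1G93A and 174 in SOD1G93A/Clec7a-KO. Cybb per 100 Cyba UMIs averaged 3.85, 4.87, 29.4 and 21.4 in the same order. Cyba per 100 Ncf1 UMIs averaged 196, 219, 636 and 816. Within the cytosolic set the group means lay closer together, with Ncf4 per 100 Ncf1 UMIs at 24.3, 24.4, 30.6 and 33.2 and Rac2 per 100 Rac1 UMIs at 34.6, 34.6, 33.8 and 41.2. None of 24 comparisons of ratios passed an exact two-sided permutation test after adjustment (smallest adjusted p = 0.171), since 3 libraries against 3 cannot give a p under 0.1 and 3 against 4 or 4 against 4 none under 0.0286. A 3' tag is counted once per molecule, whatever the length of the transcript, but genes can be captured with unequal efficiency, so these ratios are read between groups only.

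**Figure D3:**
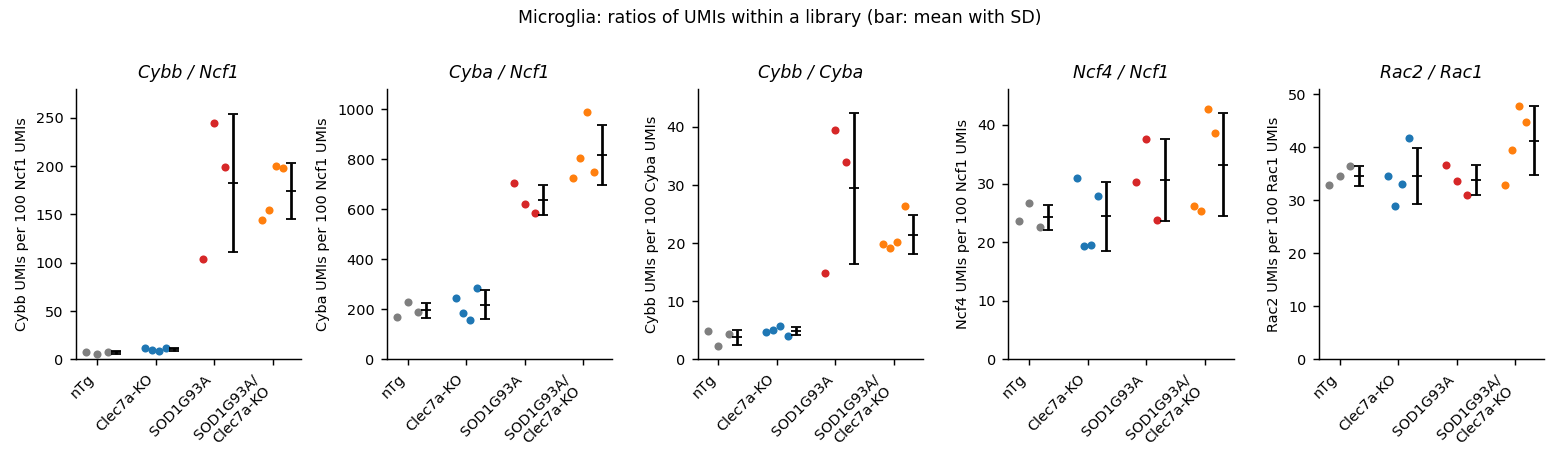
UMIs of 1 oxidase gene per 100 UMIs of another in the microglia of each library, by group, for 5 gene pairs; points are libraries and bars the mean with its SD. Cybb per 100 Ncf1 UMIs averages 7.28 in nTg and 183 in SOD1G93A.

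The share of microglia with a UMI was also higher in the transgenic groups for the membrane pair. With every cell thinned to 1000 UMIs, Cybb was seen in 1.29% of nTg, 1.76% of Clec7a-KO, 26.3% of SOD1G93A and 24.6% of SOD1G93A/Clec7a-KO microglia (means over libraries). Without thinning, at median depths of 5335 to 21538 UMIs per cell, the shares were 5.77%, 7.06%, 68.5% and 72.7%. As a background for free RNA, thinned astrocytes held Cybb in 0%, 0.0258%, 0.318% and 1.12% of cells. Cyba was seen in 48.7%, 50.5%, 73.1% and 74.9% of microglia, against 3.09%, 2.65%, 9.48% and 10.4% in astrocytes. These astrocyte shares of Cyba cannot be read as such a background, since its level there exceeded the highest microglia marker in 13 of 14 libraries. The means for Ncf1 had the opposite order, at 30.8%, 28.7%, 21.2% and 18.4%. Those for Ncf4 were 9.47%, 7.56%, 7.005% and 6.18%, and those for Rac2 12.3%, 12.9%, 12.6% and 14.4%. Thinning applies no scaling factors, so the lower Ncf1 and Ncf4 shares in transgenic libraries carry the same limit as levels without them. None of the 24 comparisons of shares passed an exact two-sided permutation test after adjustment (smallest adjusted p = 0.229).

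Within microglia the subunits differed by cluster, given here as a description since the clusters were made from the same cells. The members and Clec7a were left out of the genes used for clustering. Mean Cybb was 498 ± 87.0 CPM (SD over 7 libraries) in cluster 2 (led by Ifnb1, Acod1, Clec7a, Il12b and Cxcl10), 469 ± 104 in cluster 1 (Lgals3, Gpnmb, Spp1, Lpl), 468 ± 101 in cluster 30 (Gdf15, Mmp12; 6 libraries) and 427 ± 120 in cluster 5 (5 libraries; Tnfsf9, Mmp12, Il1b). It was 212 ± 69.0 in cluster 0 and 8.46 ± 4.43 in cluster 6, which was led by the homeostatic genes Crybb1, P2ry12 and Tmem119. Cyba was highest in clusters 11 and 1, at 1993 and 1982 CPM, and lowest in cluster 3, at 668. Ncf1 had another order, from 368 ± 56.3 CPM in cluster 6 and 355 ± 58.1 in cluster 3, through 285 ± 81.1 in cluster 2 and 253 ± 50.6 in cluster 0, to 156 ± 20.4 in cluster 5 and 152 ± 35.4 in cluster 11. Rac2 was highest in the dividing cells of cluster 22 (Mki67, Top2a), at 200.4 CPM.

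Clusters followed libraries as well as groups: 94.3% of cluster 2 came from SOD1G93A replicates 2 and 3 and SOD1G93A/Clec7a-KO replicate 1, and 98.7% of cluster 5 from SOD1G93A/Clec7a-KO replicates 3 and 4 and SOD1G93A replicate 3. Single libraries were therefore also compared within themselves. Of the 7 libraries that held both, all 7 had more Cybb (mean log2 difference 1.18) and Cyba (0.59) and less Ncf1 (-0.55) in cluster 1 than in cluster 0. Between the homeostatic clusters, all 7 such libraries had more Cybb (1.39) and less Cyba (-0.25) in cluster 3 than in cluster 6.

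**Figure D4:**
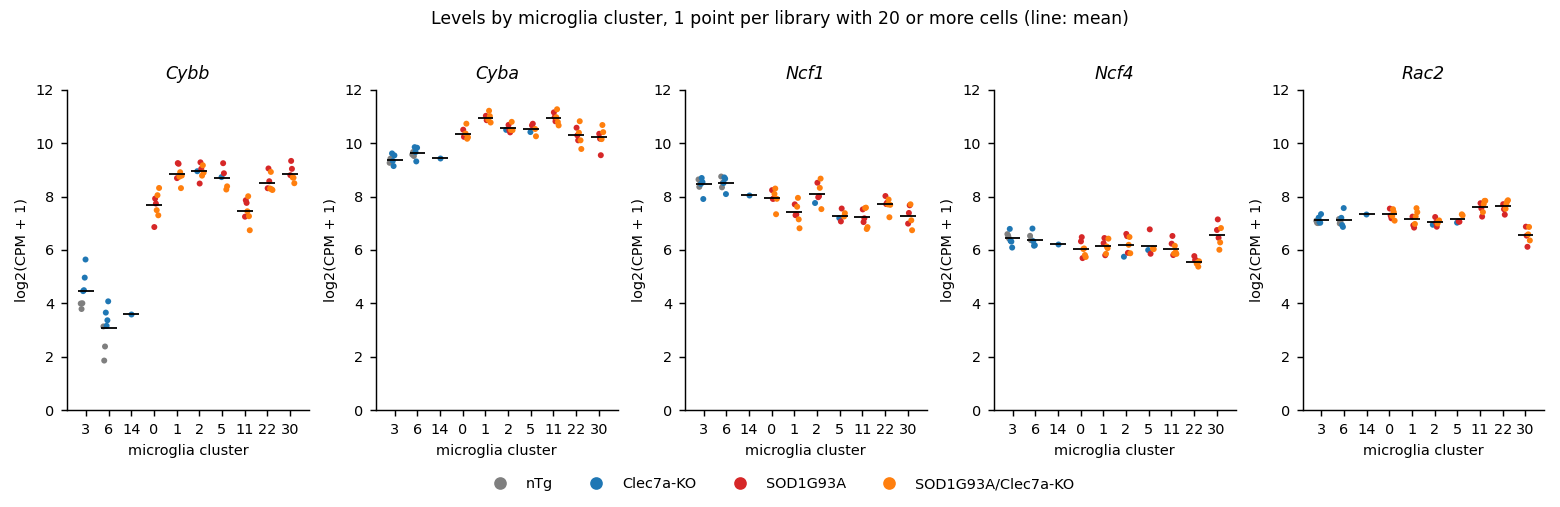
Levels of 5 oxidase genes in each microglia cluster as log2(CPM + 1), clusters of non-transgenic libraries first; points are libraries coloured by group and lines their mean. Cybb is low in clusters 3, 6 and 14 and high in clusters 1, 2 and 5, whereas Ncf1 is highest in clusters 6 and 3.

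In border-associated macrophages Cybb did not split the libraries by transgene. It ran from 526 to 687 CPM in Clec7a-KO, from 735 to 883 in SOD1G93A and from 578 to 679 in SOD1G93A/Clec7a-KO, with 816 in the only nTg library. Relative to the microglia of the same libraries this was 2515% in nTg and 1787% in Clec7a-KO, but 198% in SOD1G93A and 192% in SOD1G93A/Clec7a-KO. These differences were not tested between groups, as the class was not fitted with 1 nTg library.

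Outside microglia, 19 member and class pairs could be tested, and 6 were called in SOD1G93A against nTg and 7 in SOD1G93A/Clec7a-KO against Clec7a-KO, all of them higher. Astrocytes held more of them than any other class, and there 19.1% and 17.8% of all genes were called higher in these comparisons. In ependymal cells the shares of genes called higher were 0.726% and 1.13%, in oligodendrocyte precursors 1.05% and 3.77%, and in neurons 0.0326% and 0.236%. Endothelial cells (0.463% and 0.828%) and mural cells (0.233% and 0.357%) gave no called member. In the comparisons of SOD1G93A/Clec7a-KO with SOD1G93A and of Clec7a-KO with nTg, edgeR and DESeq2 called 0 of the 19 pairs, and 5 and 1 pairs had an unadjusted p under 0.05. Over all gene and class pairs outside microglia, 0.0109% and 0.00680% were called and 7.29% and 2.53% had an unadjusted p under 0.05.

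Astrocytes carried the largest set of calls. Cyba had 39.1, 23.7 and 28.0 scaled CPM in nTg, 30.1, 29.5, 16.2 and 34.8 in Clec7a-KO, 156, 117 and 89.9 in SOD1G93A, and 112, 330, 110 and 63.3 in SOD1G93A/Clec7a-KO. All transgenic libraries lay above all others, as groups did not overlap for 51.4% and 25.4% of astrocyte genes in the 2 transgene comparisons. The log2 difference was 1.97 for SOD1G93A against nTg (SE 0.37, adjusted p = 0.000351, edgeR) and 2.62 for SOD1G93A/Clec7a-KO against Clec7a-KO (adjusted p = 9.28e-06, edgeR). Cybb was at 0 in all nTg astrocytes and at 0.211, 0, 0 and 0 scaled CPM in Clec7a-KO. It reached 9.30, 0.900 and 4.62 in SOD1G93A and 12.02, 40.3, 5.71 and 0 in SOD1G93A/Clec7a-KO (adjusted p = 0.00156 and 2.64e-05, edgeR). Cybb passed the filter on low counts through transgenic libraries only, so these tests were set against counts at or near 0. Ncf1 was called in SOD1G93A/Clec7a-KO against Clec7a-KO (2.26, adjusted p = 0.00873, edgeR) but not without SOD1G93A/Clec7a-KO replicate 2 (1.38, adjusted p = 0.155, edgeR). Non-transgenic astrocyte libraries held at most 4.64 scaled CPM of Ncf1. It too passed the filter on low counts through transgenic libraries only, which limits its test.

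Microglia RNA in these classes moved with the same comparison. The median of 11 microglia markers in astrocytes was 0.404% of the microglia level in nTg, 0.656% in Clec7a-KO, 2.12% in SOD1G93A and 5.30% in SOD1G93A/Clec7a-KO, while microglia made up 26.4% to 33.6% of nTg cells and 64.4% to 70.0% of SOD1G93A cells. Astrocyte Cybb lay above the highest of these markers in 0 of 14 libraries and Ncf1 also in 0 of 14. Cyba exceeded the highest marker in 13 of 14 astrocyte libraries and in all 14 libraries of endothelial, mural and ependymal cells. In endothelial cells it stood at 24.4%, 23.5%, 16.1% and 16.2% of the microglia level, where the marker medians were 0.306%, 0.377%, 1.18% and 1.85%. The part of microglia RNA in any of these calls, those of Cyba included, was not tested.

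**Figure D5:**
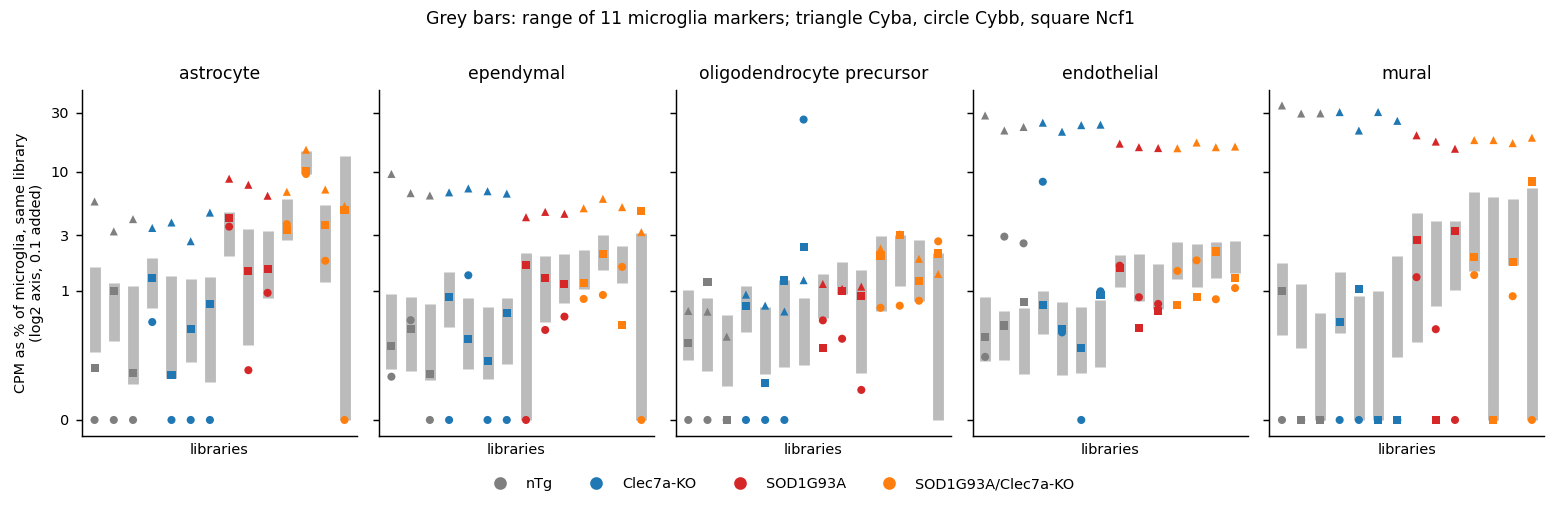
Cyba, Cybb and Ncf1 in 5 classes as a percent of the microglia level of the same library, on a log2 axis with 0.1 added; grey bars span 11 microglia markers. Cyba lies above the bars in every endothelial, mural and ependymal library, and Cybb and Ncf1 lie within or under them in astrocytes.

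Cyba was also called in oligodendrocyte precursors, where it stood at 4.24, 4.75 and 2.49 scaled CPM in nTg and 19.5, 15.6 and 15.7 in SOD1G93A (2.18, adjusted p = 0.00625, edgeR), without overlap, which 20.6% of genes in that class showed. Clec7a-KO libraries held 7.94, 5.38, 3.75 and 9.91 and SOD1G93A/Clec7a-KO libraries 38.7, 66.5, 30.2 and 19.2 (2.52, adjusted p = 0.000247, edgeR), again without overlap (10.3% of genes). In that class Cyba exceeded the highest microglia marker in only 3 of 14 libraries. The first call was lost without nTg replicate 3 (1.90, adjusted p = 0.0710, edgeR). The other calls outside astrocytes were in neurons and ependymal cells, and most of them were lost when 1 library was left out. Neuron Cyba in SOD1G93A/Clec7a-KO against Clec7a-KO (4.09, adjusted p = 0.0482, edgeR) fell to 1.31 (adjusted p = 0.703, edgeR) without SOD1G93A/Clec7a-KO replicate 2. Leaving out any 1 nTg, Clec7a-KO or SOD1G93A library also lost this call, at like differences of 3.95 to 4.39 (adjusted p = 0.0549 to 0.143, edgeR). So did RLE in place of TMM scaling (4.11, adjusted p = 0.0523, edgeR). Ependymal Rac2 in SOD1G93A against nTg (2.90, adjusted p = 0.0108, edgeR) missed the threshold without SOD1G93A replicate 3 or nTg replicate 2 or 3, at differences of 3.06, 2.85 and 2.70 (adjusted p = 0.0664, 0.0585 and 0.0569, edgeR). Ependymal Cybb was called in both transgene comparisons at 5.04 scaled CPM or less in every library (adjusted p = 0.00357 and 0.00380, edgeR). The first, at 5.31, missed the threshold without nTg replicate 1 at a like difference of 5.05 (adjusted p = 0.0535, edgeR). The second was called with each of the 14 libraries left out in turn. Non-transgenic ependymal libraries held at most 0.496 scaled CPM of Cybb and 0.921 of Rac2. Both genes thus passed the filter on low counts through transgenic libraries only, which limits these tests. Ependymal Rac2 and Cybb each lay above the highest microglia marker in 1 of 14 libraries, and the marker medians in ependymal cells were 0.224% of the microglia level in nTg, 0.405% in Clec7a-KO, 1.09% in SOD1G93A and 1.68% in SOD1G93A/Clec7a-KO.

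Nox4 was a rare transcript, seen in neurons of all groups and in astrocytes mainly of the transgenic ones. Over all libraries it averaged 3.69 ± 4.37 CPM (SD, n = 14) in astrocytes and 2.79 ± 2.06 CPM (n = 13) in neurons, then 0.469 in ependymal and 0.409 in mural cells. By group, astrocytes held 0.596 CPM in nTg and 0.394 in Clec7a-KO, under the ependymal means of 0.628 and 0.447, but 4.94 in SOD1G93A and 8.39 in SOD1G93A/Clec7a-KO. Microglia gave 6 Nox4 UMIs in 50466 cells, and none was seen in border-associated macrophages, neutrophils or T and NK cells. Neurons exceeded ependymal cells in 10 of 13 libraries (adjusted p = 0.0311, exact sign-flip permutation).

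In astrocytes Nox4 gave 4, 0 and 2 UMIs in the nTg replicates, 1, 1, 2 and 0 in Clec7a-KO, 1, 7 and 18 in SOD1G93A, and 9, 12, 3 and 1 in SOD1G93A/Clec7a-KO. On the scaled CPM scale these were 1.30, 0 and 0.505, then 0.211, 0.536, 0.850 and 0, then 1.16, 6.30 and 7.56, and last 5.15, 15.1, 5.71 and 7.91. SOD1G93A replicate 1 fell inside the nTg range. SOD1G93A/Clec7a-KO did not overlap Clec7a-KO, as found for 25.4% of astrocyte genes, and its replicate 4 rested on 1 UMI in 33 cells. Non-transgenic libraries held 1.30 or less, so Nox4 passed the filter on low counts through transgenic libraries only, which limits the tests. The log2 difference was 3.12 for SOD1G93A against nTg (SE 0.73, adjusted p = 0.00228, edgeR) and 4.14 for SOD1G93A/Clec7a-KO against Clec7a-KO (SE 0.77, adjusted p = 0.000337, edgeR). The first was not called without SOD1G93A replicate 3 (2.61, adjusted p = 0.0541, edgeR), whose 18 UMIs lay in 10 of 349 cells. Cells with a UMI made up 0.356% of nTg, 0.206% of Clec7a-KO, 2.07% of SOD1G93A and 2.84% of SOD1G93A/Clec7a-KO astrocytes. The astrocytes of the compared groups came from different clusters, with 99.9% of nTg in cluster 9 and 94.3% of SOD1G93A in cluster 16, which was led by Gfap, A2m, S100a6, Serpina3n and C3. In neurons the share of cells with a Nox4 UMI was 2.77% in nTg, 2.49% in Clec7a-KO, 2.29% in SOD1G93A and 0.526% (1 of 190 cells) in SOD1G93A/Clec7a-KO, and these shares were not tested.

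Other genes of the oxidase pathway were called in both directions in SOD1G93A microglia, at shares to be read against the 31.6% of all genes called. Of 13 other oxidase components 7 were tested, with 2 higher and 2 lower in SOD1G93A against nTg and a median log2 difference of 0.04, beside 0.01 over all genes. Rac1, the ubiquitous GTPase, rose by 0.58 (SE 0.13, adjusted p = 0.00474, edgeR) and the proton channel Hvcn1 by 0.59 (SE 0.13, adjusted p = 0.00369, edgeR). Cybc1, a chaperone of the membrane pair, fell from 68.5 ± 8.17 (n = 3) to 44.6 ± 3.14 (n = 3) scaled CPM (-0.62, adjusted p = 0.00559, edgeR), opposite to Cybb and Cyba. Duoxa1, a maturation factor of the dual oxidases, fell from a low level (-2.82, adjusted p = 0.00046, edgeR).

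Of 23 genes of oxidase activation 3 were higher and 4 lower (median 0.04), a share near that over all genes. Arhgdia, which holds Rac in the cytosol, rose by 0.73, and the kinases Mapk3 and Prkcb by 0.82 and 0.51. Prkca fell by 1.75, the Rac exchange factors Tiam1 and Vav2 fell by 1.32 and 0.46, and Mapk14 fell by 0.44. Of 9 receptors that trigger the burst and their kinase 7 were tested, of which Tlr2 (1.53) and Itgb2 (0.83) were higher and Tlr4 (-0.72) lower. Of 11 transcription factors of the oxidase genes 2 were higher, Irf8 (0.65) among them, and Irf2 (-0.58) and Elf1 (-0.52) were lower. In SOD1G93A/Clec7a-KO against Clec7a-KO the 4 lists gave 2 higher and 3 lower, 5 and 7, 2 and 2, and 3 and 3, beside 46.4% of all genes called. Without scaling factors they gave 0 and 4, 2 and 12, 1 and 4, and 0 and 7, beside 58.5% of all genes called. The SOD1G93A against nTg counts then became 0 and 3, 0 and 9, 1 and 2, and 1 and 6, beside 43.0% of all genes called, so Rac1, Hvcn1, Arhgdia, Mapk3, Prkcb, Itgb2 and Irf8 were no longer called higher while Tlr2 was.

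The genes most alike to each member differed. Over the mean levels of 10 classes, Cybb was most alike to Lyz2 (Pearson's r = 0.99), Cyba to Cmtm7 (0.97), Ncf1 to Csf3r and Ccl6 (0.99), Ncf4 to A130071D04Rik and Ptprc (1.00) and Rac2 to Arhgap9 (1.00). These points share libraries and are given as a description. Over the deviations of the 14 microglia libraries from their group means, Cybb went most with Lgals3bp (0.92), Mpeg1 (0.91) and Ifit2 (0.90), Ncf1 with Syk (0.96), Cyba with Syngr1 (0.96) and Ncf4 with Emc9 (0.85). Between members, r of the deviations was positive for most pairs. It ran from -0.47 for Ncf1 and Rac2, through -0.05 for Cybb and Cyba, to 0.45 for Ncf4 and Rac2.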

How the data were processed

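Per the labels' protocols, 10x 3' v3.1 libraries were sequenced on an Illumina NextSeq. Per the submitters' processing notes the authors used Cell Ranger, Seurat, DESeq2 and mm10, and the file headers give software version 3.0.2. The deposited matrices hold raw UMI counts per gene and cell barcode, and no cell annotation was used. Members and gene lists were chosen with earlier results of these data known.

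Of 108892 barcodes, 7127 with under 500 genes or 1000 UMIs, 4963 with over 15% mitochondrial UMIs and 7577 predicted doublets were removed, leaving 89225. Cells of all libraries were clustered together (2000 variable genes, 30 principal components, 15 neighbours, Leiden resolution 1; 36 clusters) and classes named from fixed markers. Clusters 12, 17, 18 and 31 stayed unnamed, with 5322 cells. Cluster 18 (1210 cells, led by Crybb1, Lst1 and Cst3) reached 20 cells in non-transgenic libraries only. At Leiden resolution 0.5 a cluster with these leading genes scored highest for microglia markers. Cluster 18 averaged 2.90 CPM of Cybb, 981 of Cyba, 153 of Ncf1, 90.0 of Ncf4 and 192 of Rac2. Its cells are left out of the microglia levels and shares. Library totals ran from 28819852 to 141204910 UMIs. Counts were summed per library and class (at least 20 cells; SOD1G93A/Clec7a-KO replicate 4 was left out for neurons) and fitted with edgeR 4.0.16 (TMM, filterByExpr, quasi-likelihood test, 1 term per group over all libraries, Benjamini-Hochberg adjustment over all genes), tested first on simulated data. In simulated microglia counts, 0 of 50 genes changed by log2 0.5 were called, 21 of 50 at log2 1, 40 of 50 at log2 2 and 47 of 50 at log2 4. A gene not called can thus still have changed by such amounts. Alternatives used DESeq2 1.42.0 and other settings. All 6 members were named, list genes where called in SOD1G93A against nTg microglia, and up to 3 most alike genes per member; a few named by this rule are not reported here, though the counts over lists and ratios include them. Confidence statements cover counting error and library spread only. R 4.3.3 and Python 3.11.15 were used.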

Additional observations from a re-analysis of the deposited data

Results flagged for a closer look

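In groups of 4 libraries, 7 of 45 gene and class combinations had 1 library far from the other 3 (Dixon's test at the 95% level). Chance flags about 1 group in 20, but 2 of the 7, in which the other 3 libraries were all at 0, are flagged by construction and cannot be set against that rate. Astrocyte Ncf1 in SOD1G93A/Clec7a-KO replicate 2 stood at 27.7 scaled CPM, against 5.71 to 7.91 in the other libraries of the group. Astrocyte Rac2 in Clec7a-KO replicate 1 stood at 6.54, against 0.850 to 1.61. Cybb in that library stood at 0.211 in astrocytes (1 UMI), with the others at 0, and at 3.25 in endothelial cells, against 0 to 0.314. Ependymal Cybb in Clec7a-KO replicate 2 stood at 0.496, with the others at 0, and neuron Ncf1 in the same library at 18.8, against 1.505 to 2.53. Microglia Ncf4 in SOD1G93A/Clec7a-KO replicate 1 was low, at 67.1 against 81.6 to 83.0.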

How the results depend on the processing

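Cybb and Cyba were called higher in both transgene comparisons of microglia under every alternative run, at log2 4.03 to 4.80 and 1.14 to 1.61 in SOD1G93A against nTg and 3.26 to 4.23 and 1.14 to 1.68 in SOD1G93A/Clec7a-KO against Clec7a-KO. Leaving out 1 library changed the number of members called in microglia to 2 to 3 and 3 to 4 in these comparisons (22.1% to 34.3% and 39.9% to 49.3% of all genes) and left it at 0 in the others. In other classes it gave 4 to 8 and 5 to 9 (4.60% to 7.12% and 4.99% to 8.08% of all gene and class pairs). Without a filter on low counts the members called in other classes were 12, 4, 1 and 15 of 36 pairs tested (4.37%, 0.506%, 0.312% and 4.67% of all pairs), in place of 6, 0, 0 and 7 of 19, in the order SOD1G93A against nTg, SOD1G93A/Clec7a-KO against SOD1G93A, Clec7a-KO against nTg, and SOD1G93A/Clec7a-KO against Clec7a-KO.

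Several uncalled differences changed sign, and the cause was not tested. For Ncf4 in SOD1G93A against nTg, values were -0.24 without scaling factors and -0.048 after thinning, and without scaling factors -0.39 in SOD1G93A/Clec7a-KO against Clec7a-KO. The Ncf4 interaction after thinning was 0.13. With blocks for ranges of library number (1 to 4, 5 to 12, 13 to 16), SOD1G93A/Clec7a-KO against SOD1G93A gave Cybb 0.076, Ncf1 0.079 and Rac2 -0.036, and Clec7a-KO against nTg gave Rac2 -0.061. Ncf1 in Clec7a-KO against nTg was -0.0023 with RLE, -0.0022 with DESeq2, -0.012 with no filter, -0.056 without scaling factors, -0.0105 with only 2 groups fitted, -0.015 with library number as covariate and -0.062 after thinning. Cyba there was -0.015 with the Xist term. The range blocks and the fit without scaling factors were chosen after seeing the data. Shares not thinned turned in 7 comparisons, in percentage points: SOD1G93A/Clec7a-KO minus SOD1G93A was 4.18 for Cybb, -0.263 for Cyba and -5.23 for Rac2. Clec7a-KO minus nTg was -0.430 for Cyba and -3.20 for Rac2. For Ncf4, SOD1G93A minus nTg was 7.60 and SOD1G93A/Clec7a-KO minus Clec7a-KO 0.508.

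Leaving out 1 library also turned uncalled signs. Ranges were -0.040 to 0.32 for Ncf4 in SOD1G93A against nTg. For SOD1G93A/Clec7a-KO against SOD1G93A they were -0.26 to 0.095 for Ncf4 and -0.55 to 0.026 for Cybb. For Clec7a-KO against nTg they were -0.064 to 0.084 for Ncf1 and -0.14 to 0.062 for Ncf4. For the interaction they were -0.10 to 0.17 for Cyba and -0.24 to 0.12 for Ncf4. Thinned shares ranged from -0.130 to 3.98 (Cyba) and -0.0913 to 1.18 (Rac2) for Clec7a-KO minus nTg, from -1.12 to 1.42 (Rac2) for SOD1G93A minus nTg, and from -6.66 to 1.53 (Cybb) and -0.932 to 4.24 (Cyba) for SOD1G93A/Clec7a-KO minus SOD1G93A.

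Whether replicate numbers pair the libraries was not settled. Deviations of same-numbered libraries correlated above 0.1 in 13 of 19 pairs (-0.33 to 0.57), while 4 of 14 libraries correlated best with their own number. With the replicate block, Cybb in SOD1G93A against nTg was 4.46, and neuron Cyba was lost (3.42, adjusted p = 0.120, edgeR). Depth limits the classes other than microglia, where most members gave few UMIs per library.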
